A study of Rattus norvegicus with 12 samples.

Results

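The 10 genes described here code for S100 proteins (S100a8, S100a9, S100a6, S100a10 and S100a11) and for secreted antimicrobial and host defence proteins (Lcn2, Slpi, Lyz2, Camp and Ltf). They were found by their gene names in the array files, out of 26604 gene names, and each had 1 probe on the array. Their RNA was measured on 12 Agilent 1-colour arrays, 1 array per rat, in cells dispersed from the cervix of adult female Sprague Dawley rats. There were 4 groups of 3 rats: whole cervix on day 21 after breeding (D21, typically the day before birth), whole cervix of nonpregnant rats in proestrus (NP), and D21 and NP cervix from other rats after removal of macrophages (Mφs). All 12 rats were perfused with saline, and the cervix was trimmed, minced and dispersed with collagenase B and DNAase. Whole samples were frozen at that stage, whereas depleted samples went on to incubation with the ED1 antibody, which binds the Mφ antigen Cd68, and with magnetic beads that took away the labelled cells. The comparison of whole with depleted cervix is therefore between different rats and between cells with and without these further steps.

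S100 proteins are small calcium-binding proteins that mostly work as dimers. S100a8 and S100a9 pair as calprotectin, which is abundant in neutrophils and recently recruited monocytes, holds metal ions back from microbes and signals through Tlr4 and Ager when released. S100a10 and S100a11 bind annexins at membranes, and S100a6 binds annexins and the ubiquitin ligase partner Cacybp. Lcn2 captures the iron carriers of bacteria, Slpi is a mucosal inhibitor of neutrophil elastase, and Lyz2 is the lysozyme of myeloid cells, which cuts bacterial cell walls. Camp, the precursor of the cathelicidin peptide, and Ltf, the iron-binding lactoferrin, are proteins of the secondary granules of neutrophils, although epithelia can make them too. Cervical remodelling before birth is accompanied by the arrival of leukocytes.

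The S100 genes sat in 2 clusters on rat chromosome 2 in the rn4 build. The probes for S100a6 (chr2:182896129-182896188), S100a8 (chr2:182962328-182962387) and S100a9 (chr2:182987647-182987706) lay within 91.5 kb, and those for S100a11 (chr2:186620424-186620483) and S100a10 (chr2:186654233-186654292) were 33.8 kb apart. The probes for Lcn2 (chr3:11511592-11511651), Slpi (chr3:155374636-155374695), Lyz2 (chr7:56607738-56607797), Camp (chr8:114214914-114214973) and Ltf (chr8:115438446-115438505) were on other chromosomes. Each probe was 60 bases long. The probes of the S100 genes whose values are compared in most detail, and of Slpi, are shown because they are the stretches of RNA that the values report on. Capitals mark the longest run that the S100a8 and S100a9 probes share, which was 9 bases, the longest shared by any of the 45 pairs of the 10 probes.
S100a8: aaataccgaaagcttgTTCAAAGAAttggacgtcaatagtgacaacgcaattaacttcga
S100a9: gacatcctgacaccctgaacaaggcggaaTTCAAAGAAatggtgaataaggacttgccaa
S100a6: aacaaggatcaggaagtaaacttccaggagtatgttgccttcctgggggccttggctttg
S100a11: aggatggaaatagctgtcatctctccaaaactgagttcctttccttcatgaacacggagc
Slpi: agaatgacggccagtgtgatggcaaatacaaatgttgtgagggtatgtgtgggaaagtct
The sequences are as the array files list them, and all 5 hold at least 1 reading frame with no stop codon. The Lyz2 probe is listed in the files for 2 RefSeq transcripts, 1 of which is also listed for the probe named Lyc2, a neighbouring lysozyme gene, so its signal could come from either transcript. The Lyc2 probe was well above background on 0 of the 12 arrays. The Slpi probe shared no run longer than 6 bases with the probes of its copies Slpil2 and Slpil3. The Slpi probe was not compared with the rest of the RNA of these copies, so this cannot show whether it also reports on them. Slpil2 was the gene whose profile over the 12 arrays was most like that of Slpi (Pearson r of 0.97).

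Levels are given as the log2 of the probe's intensity relative to the 75th percentile of the same array, so that 0 is the brightness that 75% of the probes stay below. They compare the same probe between rats, and not 1 gene with another. A gene was tested in a comparison where at least 1 of the groups compared had its probe rated well above background by the scanner software in all 3 rats. S100a8, S100a6, S100a10, S100a11, Lcn2 and Slpi were well above background on all 12 arrays, Lyz2 on 11 and S100a9 on 10, whereas Camp and Ltf were well above background on 0 arrays. Thus 8 of the 10 genes were tested. Differences were tested with limma over all 12 arrays and are called where the unadjusted p is below 0.01 and the change is at least 2-fold, the threshold used in the study. Adjusted p-values are Benjamini-Hochberg values from limma over all genes tested, and ± is the standard error of a difference and the SD (n = 3) of a level. The 4 comparisons share groups with each other and are not independent. With 3 rats against 3, the smallest p that an exact 2-sided permutation test can reach is 0.1, so no single gene could pass such a test.

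Removal of Mφs was visible in the marker genes fixed for that cell type. Over 15 Mφ markers, among them Csf1r, Adgre1 and C1qa, the mean log2 level lay between 0.97 and 1.10 in D21 whole cervix and between 0.35 and 1.25 in NP whole cervix, against -3.62 to -2.84 in D21 depleted and -3.99 to -3.49 in NP depleted cervix. Cd14 of the same list did not follow them. It was at 3.16 ± 0.18 in D21 whole and 2.90 ± 0.39 in D21 depleted cervix. In NP rats Cd14 was at 2.50 ± 0.42 in whole and 2.73 ± 1.24 in depleted cervix, and neither difference was called. Cd68, which codes for the ED1 antigen itself, did not follow them either. It stood at 0.23, 1.32 and 0.68 in D21 whole and 1.04, -0.33 and 1.96 in D21 depleted cervix, and at -0.01, -0.05 and 0.54 in NP whole and -1.68, 0.14 and 0.38 in NP depleted cervix, with overlap in both (adjusted p = 0.882 and 0.530). Other cell types differed as well. The mean level of 8 fibroblast markers was 4.65 ± 0.08 in NP whole and 0.30 ± 0.39 in NP depleted cervix, 4.53 ± 0.21 in D21 whole and 3.33 ± 0.38 in D21 depleted cervix, and 7 immediate-early genes such as Fos and Egr1 were all lower in whole than in depleted cervix in both D21 and NP rats. Of 11 neutrophil markers that are not among the 10 genes, Mmp8 and Ngp were well above background on 0 arrays, Elane and Prtn3 on 1 and Mpo on 2, whereas Csf3r was on 6, Cd177 and Fpr1 on 9, Cxcr2 and Il1r2 on 11 and Padi4 on 12. The 4 slides were scanned on 3 days, all whole samples on the third, and the share of probes well above background ran from 44.9% to 61.8%.

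S100a8 stood at 0.09, -0.94 and 0.54 in NP whole cervix (rats 8, 9 and 10) and at -1.51, -1.35 and -2.28 in D21 whole cervix (rats 5, 6 and 7). All 3 D21 rats were below all 3 NP rats. The difference was -1.61 ± 0.54 on the log2 scale, 3.05-fold lower in D21, with a 95% interval from -2.79 to -0.43, and it missed the threshold (limma, adjusted p = 0.103). It passed without NP rat 9, the lowest NP rat, at -2.03 (adjusted p = 0.058). It also passed where limma was run on these 6 arrays alone (-1.61, adjusted p = 0.0462). Rat 9 was the NP rat nearest to the D21 rats, so leaving it out could only widen the difference. For results not called, the fits with a rat left out given here and below are those that turned them into calls. Each dropped a rat whose removal widened the difference, and such results still count as not called. On the slide that held all 3 D21 rats and NP rat 10, the highest NP rat, the difference was -2.25. In bulk samples such as these, fewer cells of a type and less RNA per cell cannot be told apart, here and in every result that follows.

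After removal of Mφs, S100a8 was at -2.66, -0.65 and -1.55 in NP rats 5, 6 and 7 and at -3.46, -2.40 and -3.39 in D21 rats 1, 2 and 4. The groups overlapped, since NP rat 5 lay below D21 rat 2. The D21 minus NP difference was -1.46 ± 0.54, which was not called (adjusted p = 0.148), and it was -1.98 and called without NP rat 5 (adjusted p = 0.0955). On the slide with D21 rat 2 and NP rats 5 and 6 it was -0.74, and on the slide with D21 rat 4 and NP rat 7 it was -1.83. S100a8 was higher in whole than in depleted cervix by 1.37 ± 0.54 in D21 rats, where all 3 whole samples were above all 3 depleted samples, and by 1.52 ± 0.54 in NP rats, where the groups overlapped. Neither passed the threshold (adjusted p = 0.0861 for D21, 0.0491 for NP). The NP difference was called without NP depleted rat 6 (2.00), the highest of its group, or without NP whole rat 9 (1.93), the lowest of its group. On the slide with NP whole rats 8 and 9 and NP depleted rat 7 it was 1.13. The D21 difference was called in limma on the 6 arrays compared (1.37, adjusted p = 0.057). The D21 and NP differences were not separated (interaction -0.15 ± 0.76, interval -1.83 to 1.53, adjusted p = 0.934). In order of mean level, NP whole cervix came first (-0.10 ± 0.76), then NP depleted (-1.62 ± 1.01) and D21 whole (-1.71 ± 0.50), whose values overlapped, and D21 depleted last (-3.08 ± 0.59).

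S100a9, the partner of S100a8, gave -0.26, -0.03 and 0.24 in NP whole cervix and -0.07, -0.43 and -0.87 in D21 whole cervix. These overlapped and differed by -0.45 ± 1.03 (adjusted p = 0.835). In D21 depleted cervix S100a9 was at -2.17, -1.50 and -2.80, all below the 3 D21 whole samples, but the difference of 1.70 ± 1.03 did not pass in the fit over 12 arrays (adjusted p = 0.243). It was called in limma on those 6 arrays alone (1.70, adjusted p = 0.0321). NP depleted cervix held the widest spread within a group among the 10 genes, at -1.86, 2.60 and -2.68 in rats 5, 6 and 7, a 38.8-fold range. NP depleted rat 6 was the highest of all 12 arrays for S100a9, and the probe was not well above background in NP depleted rat 7 or in D21 depleted rat 4. The NP whole minus depleted difference was 0.64 ± 1.03 with that rat (adjusted p = 0.668) and 2.26 without it (adjusted p = 0.00291, called). D21 and NP depleted cervix were not compared for S100a9, because neither group had it well above background on all 3 arrays. Over the 12 arrays the centred profiles of S100a8 and S100a9 had a Pearson r of 0.70 and a root-mean-square difference of 1.05 on the log2 scale, a description that includes NP depleted rat 6.

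**Figure D1:**
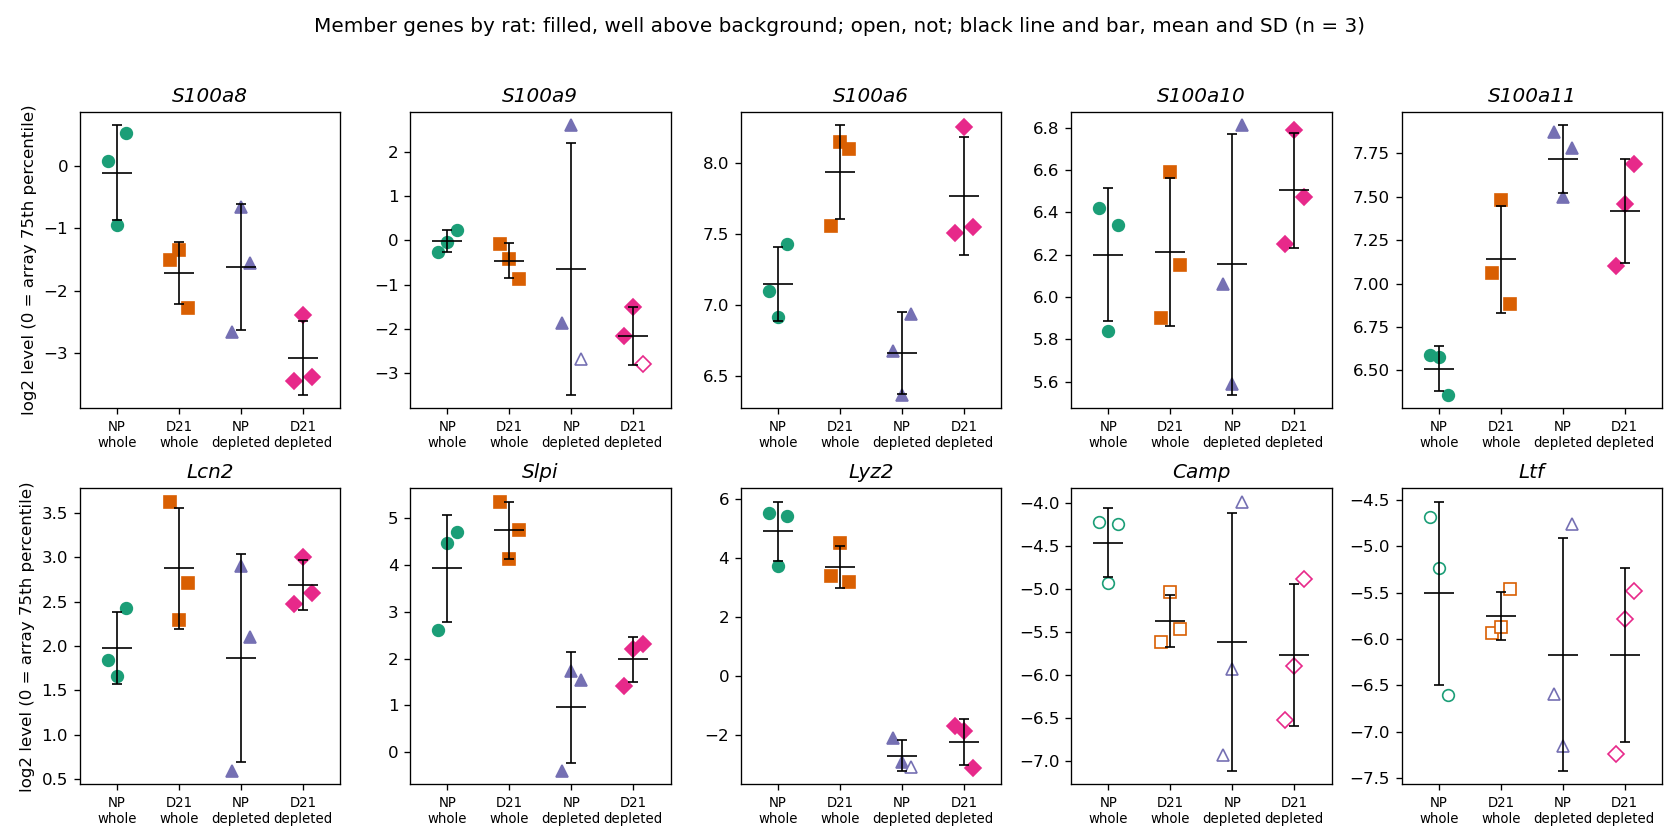
Log2 level of each of the 10 genes (y axis, 0 = 75th percentile of the array) by group (x axis), 1 point per rat, with the mean and SD of 3 rats in black and open points where the probe was not well above background. The 6 Lyz2 values of whole cervix lie between 3.18 and 5.54 and the 6 of depleted cervix between -3.14 and -1.70, and S100a9 of NP depleted rat 6 stands at 2.60, apart from its group.

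S100a6 was the 1 gene of the 10 that was called between D21 and NP rats, and this was in depleted cervix. It stood at 6.68, 6.37 and 6.94 in NP depleted rats 5, 6 and 7 and at 7.51, 8.25 and 7.55 in D21 depleted rats 1, 2 and 4, with all D21 rats above all NP rats. It rose by 1.11 ± 0.28 on the log2 scale, 2.15-fold with a 95% interval from 1.40 to 3.30 (limma, adjusted p = 0.0497). In whole cervix S100a6 was at 7.10, 6.92 and 7.43 in NP rats and at 7.56, 8.15 and 8.10 in D21 rats, again without overlap, and the difference of 0.78 ± 0.28 (1.72-fold) did not reach the threshold (adjusted p = 0.131). It was not shown that the 2 differences were unequal (interaction -0.32 ± 0.40, adjusted p = 0.697). Of 8 fibroblast markers 7 were also higher in D21 than in NP depleted cervix, as were 5 of 7 smooth muscle markers tested, so that the depleted groups differed in these markers too. In whole cervix 0 of 8 fibroblast markers were called, and the smooth muscle markers Acta2 and Cnn1 went the other way, 2.62-fold and 2.24-fold lower in D21 than in NP rats. Their part in the S100a6 result was not tested.

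The S100a6 call in depleted cervix lay close to the 2-fold limit of the threshold. Without D21 depleted rat 2, the highest, it was 0.87 (adjusted p = 0.154), and without NP depleted rat 6, the lowest, it was 0.96 (adjusted p = 0.129), neither of them called. On the slide with D21 rat 2 and NP rats 5 and 6 it was 1.72, and on the slide with D21 rat 4 and NP rat 7 it was 0.61. Under quantile normalization the depleted difference was 0.85 and not called (adjusted p = 0.116), whereas the whole cervix difference was 1.03 and called (adjusted p = 0.0488). S100a6 did not differ between whole and depleted cervix beyond the threshold in D21 rats (0.17 ± 0.28, interval -0.46 to 0.79) or in NP rats (0.49 ± 0.28, interval -0.13 to 1.11).

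S100a11 showed a difference with Mφ removal in NP rats, in the direction opposite to the Mφ markers. It stood at 6.59, 6.58 and 6.36 in NP whole cervix and at 7.87, 7.50 and 7.78 in NP depleted cervix, with no overlap. Whole cervix was lower by 1.21 ± 0.24 on the log2 scale, 2.31-fold (log2 difference -1.21, interval -1.73 to -0.68, adjusted p = 0.00293), and on the slide that both groups shared the difference was -1.20. Under quantile normalization it was -0.99, just under 2-fold, and not called. In D21 rats it was at 7.06, 7.48 and 6.88 in whole and 7.10, 7.46 and 7.69 in depleted cervix, which overlapped (-0.28 ± 0.24, adjusted p = 0.422). The difference between these contrasts was 0.93 ± 0.34 (adjusted p = 0.176), not called, although it was called without D21 depleted rat 4 (1.07, adjusted p = 0.0541). In whole cervix all D21 rats were above all NP rats for S100a11, by 0.63 ± 0.24 (1.55-fold, adjusted p = 0.151).

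Some squamous and columnar epithelial markers were also lower in NP whole than in NP depleted cervix. The mean level of 9 squamous markers ranged from 0.51 to 2.28 in NP whole and from 2.44 to 4.16 in NP depleted cervix, with Krt5, Krt4, Tp63 and Col17a1 lower in whole cervix and 0 markers higher. For 10 columnar markers the ranges were 1.84 to 2.80 and 2.81 to 3.76, with Cdh1, Elf3, Epcam and Krt19 lower in whole cervix. Their part in the S100a11 result was not tested.

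S100a10, the annexin A2 partner, varied little. It stood at 6.42, 5.84 and 6.34 in NP whole, 5.90, 6.59 and 6.15 in D21 whole, 6.06, 5.59 and 6.81 in NP depleted, and 6.25, 6.79 and 6.47 in D21 depleted cervix. All 4 groups overlapped, and 0 of its 4 differences were called (from -0.29 ± 0.33 to 0.35 ± 0.33, adjusted p from 0.550 to 0.988). The 95% intervals of these 4 differences ran from -1.02 at the lowest to 1.07 at the highest, so changes of about 2-fold were at their edge.

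Lcn2 was likewise not called in any comparison. In whole cervix it was at 1.84, 1.66 and 2.43 in NP rats and 3.63, 2.29 and 2.71 in D21 rats, which overlapped through NP rat 10 and D21 rat 6. In depleted cervix it was at 0.59, 2.90 and 2.10 in NP rats and 2.47, 3.01 and 2.60 in D21 rats, with NP rat 5 the lowest of the 12. The D21 mean exceeded the NP mean by 0.90 ± 0.53 in whole (adjusted p = 0.337) and by 0.83 ± 0.52 in depleted cervix (adjusted p = 0.372). Whole and depleted cervix differed by 0.18 ± 0.53 among D21 and 0.12 ± 0.53 among NP rats (adjusted p = 0.821 and 0.883), with intervals from -0.97 to 1.34 and from -1.04 to 1.27.

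Slpi was higher in whole than in depleted cervix. It stood at 5.35, 4.13 and 4.74 in D21 whole and at 1.42, 2.21 and 2.31 in D21 depleted cervix, and at 2.60, 4.47 and 4.70 in NP whole and -0.40, 1.73 and 1.54 in NP depleted cervix. Neither pair of groups overlapped. The difference was 2.76 ± 0.65 in D21 rats, 6.78-fold with a 95% interval from 2.52 to 18.2 (adjusted p = 0.0157), and 2.97 ± 0.65 in NP rats, 7.84-fold with an interval from 2.92 to 21.0 (adjusted p = 0.00502). The NP difference was 2.29 without NP depleted rat 5 and 3.63 without NP whole rat 8, and was called in both. The size of the 2 differences could not be separated (interaction -0.21 ± 0.92, adjusted p = 0.924).

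The Slpi calls did not hold once slides or scan days entered the fit. With the slide as a block the D21 difference was 1.04 (adjusted p = 0.844) and the NP difference 2.22 (adjusted p = 0.116), and with the scan day as a block they were 2.21 (adjusted p = 0.147) and 2.61 (adjusted p = 0.0487), none of them called. These fits rest on few arrays, because D21 depleted rat 1 was alone on its slide and its scan day and adds nothing to them. No slide held both D21 whole and D21 depleted samples. The D21 difference with the slide as a block was therefore reached only through NP samples on shared slides, and is not a difference within a slide. Within the third scan day, Slpi was 2.43 higher in the 3 D21 whole samples than in D21 depleted rat 4, and within the slide of NP whole rats 8 and 9 and NP depleted rat 7 it was 2.00 higher in whole cervix. Between D21 and NP rats Slpi differed by 0.82 ± 0.65 in whole and 1.03 ± 0.65 in depleted cervix, with overlap and no call (adjusted p = 0.483 and 0.372).

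Lyz2 showed the largest difference of the 10 genes. It was at 5.54, 3.74 and 5.44 in NP whole and 3.40, 4.53 and 3.18 in D21 whole cervix, against -2.12, -2.92 and -3.10 in NP depleted and -1.70, -1.89 and -3.14 in D21 depleted cervix. Whole cervix was higher by 7.62 ± 0.56 in NP rats, 197-fold with an interval from 83.6 to 463 (adjusted p = 4.72e-06), and by 5.95 ± 0.56 in D21 rats, 61.6-fold with an interval from 26.2 to 145 (adjusted p = 0.000105). The NP depleted level was well above background in 2 of 3 rats. Within a shared slide the NP difference was 7.74, and within the third scan day the D21 difference was 6.85. The D21 contrast was smaller than the NP contrast by 1.67 ± 0.80 on the log2 scale (interaction -1.67, adjusted p = 0.289), not called, and it was -2.26 and called without NP whole rat 9, the lowest NP whole sample (adjusted p = 0.128). Without the same rat the D21 minus NP difference in whole cervix went from -1.20 (adjusted p = 0.234) to -1.79 (adjusted p = 0.0677), and was then called.

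**Figure D2:**
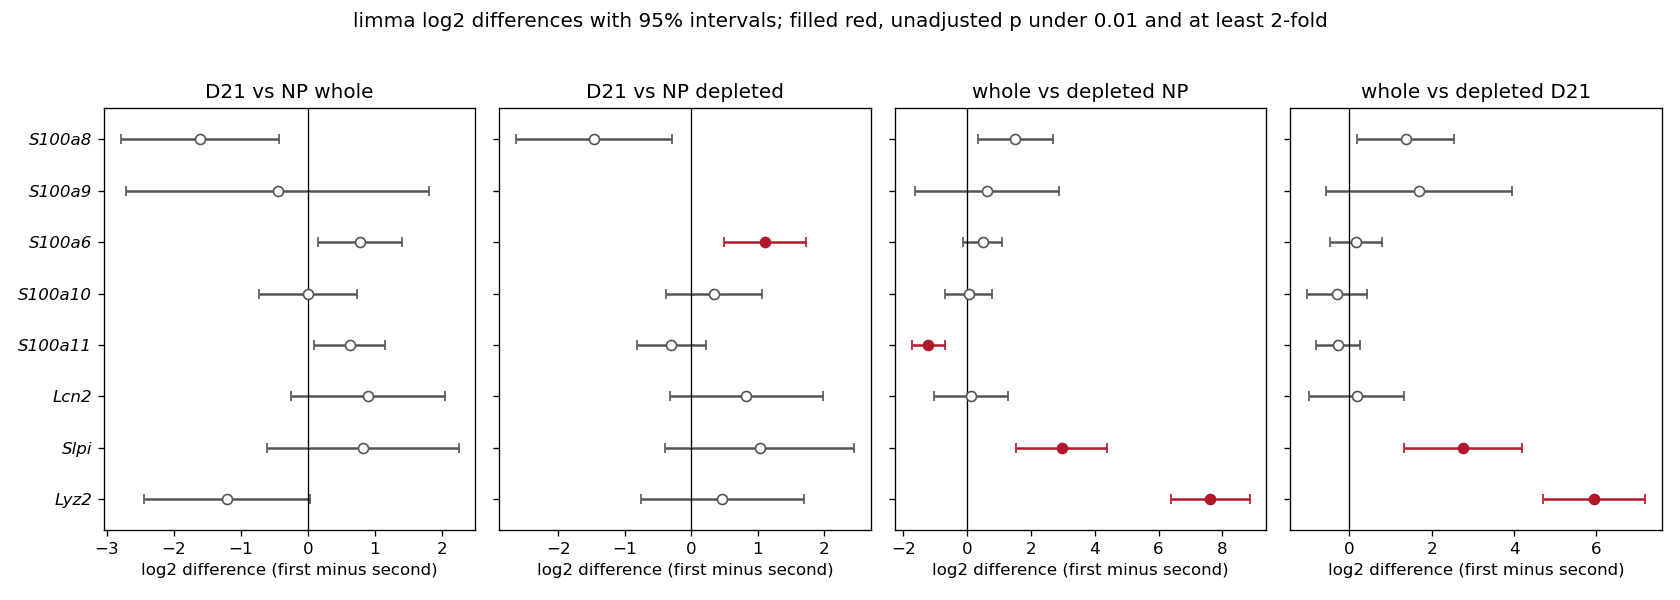
limma log2 differences (x axis, first group minus second) with 95% intervals for the 8 tested genes (y axis) in the 4 comparisons, filled red where the unadjusted p was below 0.01 and the change at least 2-fold. The red points are S100a6 at 1.11 in D21 vs NP depleted cervix, S100a11 at -1.21, Slpi at 2.97 and Lyz2 at 7.62 in whole vs depleted NP cervix, and Slpi at 2.76 and Lyz2 at 5.95 in whole vs depleted D21 cervix.

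Camp and Ltf, the 2 secondary granule genes, were not well above background on any array. The Camp signal lay between -6.93 and -3.99 and the Ltf signal between -7.24 and -4.69 over the 12 arrays, and no fold is given for them. Of the neutrophil markers, Csf3r, the receptor of granulocyte colony-stimulating factor, was well above background in the 6 whole samples and in 0 of the 6 depleted samples, and exceeded the depleted level at least 2.76-fold in D21 and at least 5.15-fold in NP whole cervix (adjusted p = 0.0136 and 0.0021). These bounds set the whole group's mean against the dimmest signal rated well above background on each depleted array, or the probe's own signal where that was higher. The other neutrophil markers did not all share this direction. Il1r2 was higher in NP whole than NP depleted cervix by 2.63 ± 0.70 (adjusted p = 0.0148, with 2 of 3 depleted arrays well above background), Cd177 was at least 3.28-fold lower there (adjusted p = 0.0224), and Padi4 and Cxcr2 were not called (NP differences of -1.78 ± 0.72 and -0.47 ± 0.64, D21 differences of -1.08 ± 0.72 and 0.40 ± 0.64). The median over the markers tested was 0.15 in D21 rats, with 1 of 6 called higher and 0 lower, and -0.47 in NP rats, with 2 of 5 called higher and 1 lower, against -0.06 and -0.04 over all genes tested. Between D21 and NP whole cervix 5 of 6 tested neutrophil markers had higher means in D21 rats, with a median of 1.67 against -0.08 over all genes. Cd177, Fpr1 and Cxcr2 were tested only because all 3 D21 rats had them well above background, against 0, 1 and 2 NP rats. The count and the median are therefore fixed in part by that filter and are not set against S100a8. Cd177 was at least 4.68-fold higher (adjusted p = 0.0374) and Padi4 4.77-fold higher (adjusted p = 0.0884) in D21 whole cervix, both called, while the 1 marker with a lower mean, Csf3r, was not called (-1.18 ± 0.63, adjusted p = 0.293). The tested markers did not include Mpo, Elane, Prtn3, Mmp8 and Ngp, since no group had them well above background in all of its rats. Among these dim signals, the means of Mpo, Elane, Mmp8 and Ngp were higher in NP than in D21 whole cervix, and that of Prtn3 was lower. Columnar epithelial markers also rose between D21 and NP whole cervix, with 9 of 10 called higher and a median of 1.84. Which cells gave the higher marker values was not tested, nor was the part of neutrophils in the S100a8 and S100a9 values.

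Counted over the tested genes of the set, 0 of 8 were called between D21 and NP whole cervix, where 5.37% of all 14055 genes tested were called higher and 3.08% lower. In depleted cervix 1 of 7 was called higher and 0 lower in D21 rats, against 5.45% and 2.07% of 13407 genes. Between whole and depleted cervix 2 of 8 were called higher and 0 lower in D21 rats, against 10.0% and 7.72% of 14255 genes, and 2 of 8 higher and 1 lower in NP rats, against 13.6% and 10.8% of 13412 genes. For the interaction 0 of 8 were called, against 2.44% higher and 4.99% lower of 14564 genes. With 8 genes these counts do not set the group apart from the array as a whole. By adjusted p below 0.05, 0 genes of the set passed between D21 and NP whole cervix and 4 between whole and depleted NP cervix, S100a8 being the fourth. In that NP comparison S100a8 ranked 4365 by p among the 13412 genes tested, and the genes ranked above it passed this cut too. The 4 genes therefore do not set the group apart either.

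**Figure D3:**
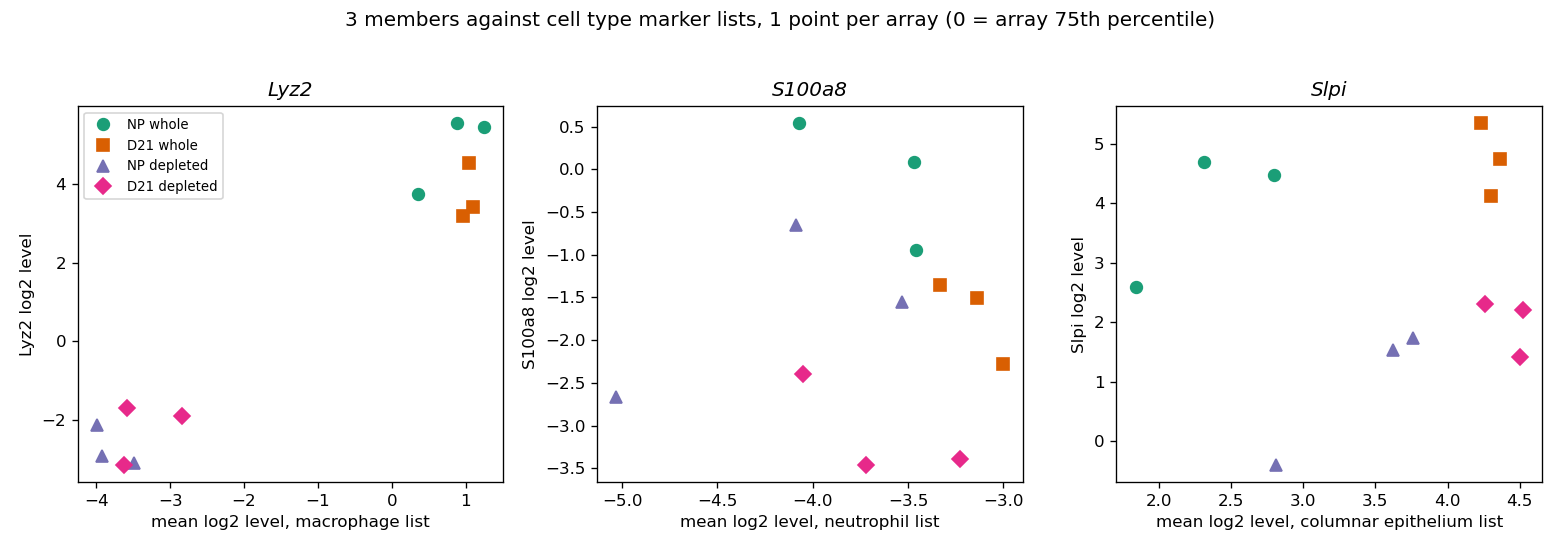
Log2 level of Lyz2, S100a8 and Slpi (y axes) against the mean log2 level of the Mφ, neutrophil and columnar epithelial marker lists (x axes), 1 point per array. Whole and depleted samples form separate clusters for Lyz2 against the Mφ list, the 3 NP whole samples reach S100a8 levels of -0.94 to 0.54 at neutrophil list levels within the range of the other groups, and Slpi differs between D21 whole and D21 depleted cervix at columnar marker levels of 4.23 to 4.52. In each group 4 to 6 of the 11 neutrophil list genes were never well above background, so that axis holds dim signals in part and is not a measure of neutrophil content.

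For Slpi, an epithelial product, the columnar markers were compared. Their mean level overlapped in D21 rats, as it ranged from 4.23 to 4.36 in D21 whole and from 4.26 to 4.52 in D21 depleted cervix, and in NP rats it was lower in whole cervix, where Slpi was higher. Between D21 and NP whole cervix 9 of the 10 columnar markers rose, with a median of 1.84 on the log2 scale against -0.08 over all genes tested. Lyz2 followed the Mφ markers between whole and depleted cervix, since 12 of 15 Mφ markers were higher in D21 whole cervix (median 4.65) and 11 of 13 tested in NP whole cervix (median 5.13). Like Slpi, 6 of 8 smooth muscle markers were also higher in D21 whole cervix and 8 of 8 in NP whole cervix, whereas 0 squamous markers were called higher in either. The part of any of these cell types in the Slpi result was not tested.

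The rest of the S100 family was read from a list of 13 genes, 11 of them on the array. S100a4, a marker of motile stromal and myeloid cells, and S100a1, known from muscle, rose in D21 relative to NP depleted cervix by 1.91 ± 0.48 (3.76-fold, adjusted p = 0.0486) and 1.81 ± 0.38 (3.50-fold, adjusted p = 0.0219). S100a16 rose in D21 relative to NP whole cervix by 1.12 ± 0.27 (2.17-fold, adjusted p = 0.0366), and, like S100a11, it was lower in NP whole than NP depleted cervix, by 1.18 ± 0.27 (2.27-fold, log2 difference -1.18, adjusted p = 0.00602). S100a1, S100a3, S100a4 and S100b were higher in NP whole than NP depleted cervix, from 1.27 ± 0.23 for S100a3 to 2.92 ± 0.68 for S100b. Most Mφ markers and the fibroblast and smooth muscle markers were higher there too. The part of any of these cell types in the values of these S100 genes was not tested. In D21 rats 0 of the 7 family genes tested were called between whole and depleted cervix, against 10.0% higher and 7.72% lower of all genes tested. S100a16 was lower in all D21 whole than in all D21 depleted samples, as in NP rats, but below the 2-fold limit (-0.66 ± 0.27, interval -1.25 to -0.07). For the NP comparison the family had 4 of 8 tested genes called higher and 1 lower, against 13.6% and 10.8% of all 13412 genes tested. The family median was 1.24 against -0.04 over all genes.

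S100g, a vitamin D and oestrogen responsive calcium binder, was measured well above background in every rat but varied widely within groups, from 4.05 to 8.31 in NP whole and from 4.01 to 7.72 in NP depleted cervix, and was not called. S100a7a, of the psoriasin group of epidermal S100 proteins, was well above background in 3 of 3 NP depleted and 2 of 3 NP whole samples and in 0 of the 6 D21 samples. Its NP whole values were -1.43, -6.06 and 1.68, so that NP rat 9 was the lowest for S100a7a as for S100a8. It was at least 3.91-fold higher in NP than in D21 depleted cervix, which was not called (adjusted p = 0.265).

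**Figure D4:**
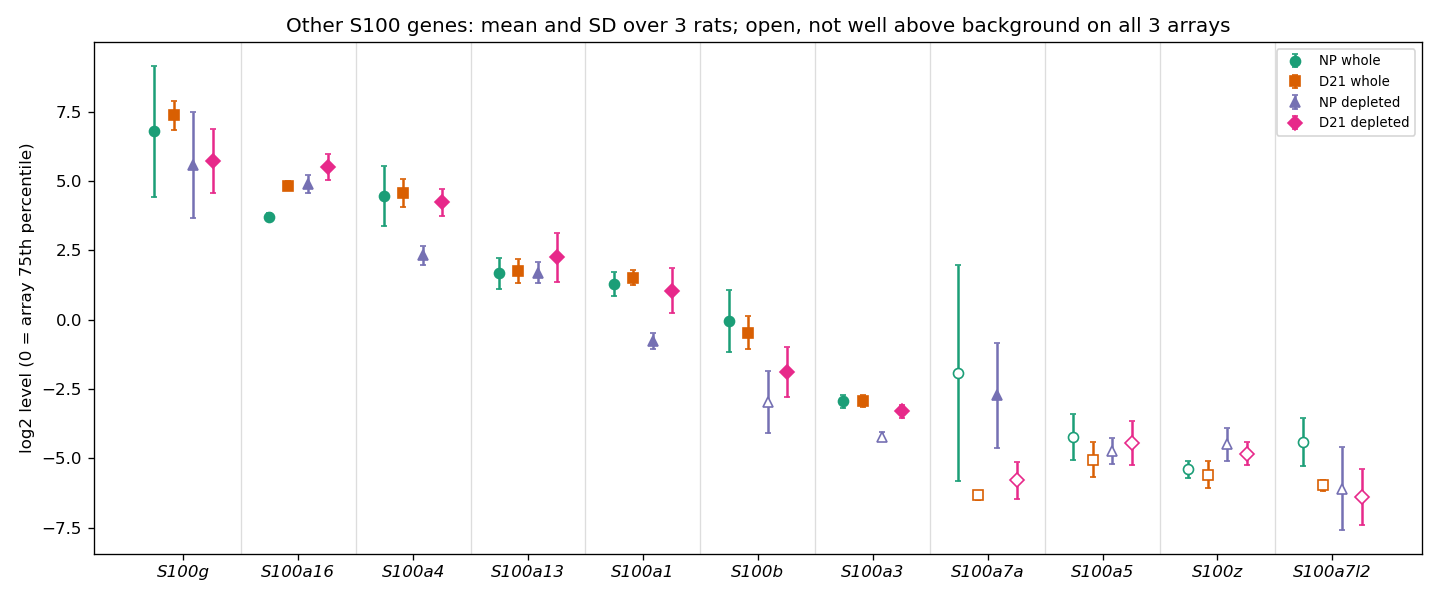
Mean log2 level with SD over 3 rats (y axis, 0 = 75th percentile of the array) of the 11 other S100 genes on the array (x axis) in the 4 groups, open where the probe was not well above background on all 3 arrays. S100a1 and S100a4 are lowest in NP depleted cervix at -0.76 and 2.32, S100a16 is lowest in NP whole cervix at 3.71, and S100a7a has its widest SD, 3.90, in NP whole cervix.

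Among 19 partners, receptors and targets on the array, Anxa1 and Anxa2 were lower in NP whole than NP depleted cervix, as was S100a11. So were 10.8% of all genes tested. S100a10 did not differ there (0.05 ± 0.33), and Anxa11 was not called (2.29 ± 0.26 in NP whole and 2.85 ± 0.20 in NP depleted cervix). A link between these values and the binding of S100 proteins was not tested. Anxa1 was at 6.19, 6.03 and 6.13 in NP whole and 6.94, 7.72 and 6.88 in NP depleted cervix (log2 difference -1.07 ± 0.30, 2.10-fold lower in whole, adjusted p = 0.0187). Anxa2 was at 5.50, 4.85 and 5.76 against 6.36, 6.60 and 6.91 (-1.25 ± 0.27, 2.38-fold lower, adjusted p = 0.00443). Neither annexin was called in D21 rats (-0.16 ± 0.30 and -0.71 ± 0.27). Anxa6 went the other way, higher in NP whole cervix by 3.11 ± 0.37 (8.66-fold, adjusted p = 0.000108), with a smaller contrast in D21 rats (interaction -2.44 ± 0.53, adjusted p = 0.0403), and it rose in D21 relative to NP depleted cervix by 1.73 ± 0.37. The calprotectin receptor gene Tlr4 was not called in any comparison (D21 minus NP 0.46 ± 0.33 in whole and 0.84 ± 0.33 in depleted cervix), nor was Cacybp, the S100a6 partner, or Slc22a17, the Lcn2 receptor. Of the proteases, Elane, Prtn3 and Ctsg were well above background on at most 1 array each, whereas Cma1, the mast cell chymase that Slpi can inhibit, was higher in whole cervix of D21 rats by 3.27 ± 0.80 (adjusted p = 0.0182) and of NP rats by 3.96 ± 0.80 (adjusted p = 0.0032). Cma1 was well above background on 2 of 3 D21 depleted and 1 of 3 NP depleted arrays. Cd36 and Lrp1 were also higher in whole cervix in both D21 and NP rats, Plaur was lower in D21 whole than D21 depleted cervix and higher in D21 than NP depleted cervix, and 0 of 15 tested partners were called between D21 and NP whole cervix.

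Of 36 other antimicrobial and host defence genes 32 were on the array, and 14 to 16 of them could be tested in each comparison. Ang, a ribonuclease with antimicrobial activity, and Wfdc2, an epithelial protein with the same type of domain as Slpi, were higher in D21 than in NP cervix. Ang rose by 1.92 ± 0.43 in whole (3.78-fold, adjusted p = 0.0284) and by 2.18 ± 0.43 in depleted cervix (4.54-fold, adjusted p = 0.015). Wfdc2 rose by 2.40 ± 0.64 in whole (5.28-fold, adjusted p = 0.0513) and by 2.10 ± 0.64 in depleted cervix (4.27-fold, adjusted p = 0.0952), and Adm, whose peptide is both vasodilator and antimicrobial, by 1.52 ± 0.34 in depleted cervix. Wfdc18 of the same list went the other way and was not called. Its D21 mean was 8.43-fold lower in whole (adjusted p = 0.095) and 4.73-fold lower in depleted cervix (adjusted p = 0.221). Rnase6, a ribonuclease of monocytes, fell in D21 whole cervix by 1.35 ± 0.39 (difference -1.35, adjusted p = 0.0664), though the groups overlapped.

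Between whole and depleted cervix Rnase4, Rnase6 and the cysteine protease inhibitor Cst3 were higher in whole cervix in both D21 and NP rats, like Lyz2. Rnase6 was higher by 3.46 ± 0.39 on the log2 scale in NP whole cervix, with 2 of 3 depleted arrays well above background, and at least 3.14-fold higher in D21 whole cervix, with 0 of 3. Rnase4 was 5.92-fold higher in D21 and 8.13-fold higher in NP rats. Chi3l1 was higher in D21 whole cervix by 2.95 ± 0.86 (adjusted p = 0.0334), with 1 of 3 depleted arrays well above background. Defa24, an alpha-defensin, was at least 3.44-fold higher in NP whole cervix, and Adm was 4.10-fold lower in D21 whole than D21 depleted cervix. The beta-defensin Defb1, measured well above background in all 12 rats, was not called.

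The genes whose profile over the 12 arrays was most like those of 4 of the genes were ranked by the root-mean-square difference of log2 profiles centred on their means, over 14486 genes. For S100a8 these were Septin1 (0.38), Pla2g7 (0.49), P2rx1 (0.52), Septin6 (0.53) and Klhl6 (0.57). For S100a6 they were Crip1 (0.15), Slc35a3 (0.27), Dap (0.28), Rtn3 (0.28) and Hpcal1 (0.29), and for Lcn2 they were Ptpn18 (0.37), RGD1308221 (0.38), B3gnt7 (0.40), Tap2 (0.43) and Emb (0.43). For Lyz2 they were Igsf7 l1 (0.61), Fcrl2 (0.70), ENSRNOT00000067247 (0.74), Csf1r (0.75) and Ly86 (0.78). S100a6 also ranged less over the arrays than Lyz2, so the sizes of these values are not compared between the 4 genes.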

How the data were processed

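The 12 arrays (Agilent Rat 4x44K v3, Cy3) were read from the scanner files, which the authors deposited with intensity values made by Feature Extraction 9.5.3.1 (background subtracted and detrended, with no scaling between arrays), and with the software's flags (0 or 1), a category other than a level. A table of ratio values that the authors deposited, intensity over the array's 75th percentile, served as an alternative. Control and outlier spots were left out, spots of a probe were averaged, and log2 intensity minus the log2 75th percentile of the array was fitted by lmFit and eBayes of limma 3.58.1 (R 4.3.3), with 4 group means over 12 arrays and no covariates. Of 30367 probes 17492 were named through RefSeq accessions (57.6%), and other names are those of the array. For a gene with several probes the brightest was used. Groups came from the labels. The p-values measure the spread between rats, and the number of arrays limits the precision. Sequences and rn4 positions were copied from the array files.

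The genes described and the gene lists were chosen with earlier results of these data known. All 10 genes are named, list genes where called or as examples of their list, the 5 most similar profiles for S100a8, S100a6, Lcn2 and Lyz2, and the most similar profile for Slpi. The fit was tested on simulated data. Alternatives were the Welch test of the study's methods, limma on the arrays compared, normexp background correction, quantile normalization, a percentile over detected probes, other background filters, the mean of all probes, a block for slide or for scan day, the deposited ratios, and leaving out each rat. Figures were drawn with Python 3.11.15 and matplotlib 3.10.9.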

Additional observations from a re-analysis of the deposited data

How the results depend on the processing

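Over the comparisons and alternatives run, no difference that was called changed its direction. The number of genes called between D21 and NP whole cervix, 0 in the analysis reported, was 1 with limma on the arrays compared (S100a8), with quantile normalization (S100a6), with the percentile over detected probes (S100a8) and with genes well above background on all 12 arrays (S100a8), and 0 to 2 when 1 rat was left out. Between D21 and NP depleted cervix it was 1 (S100a6), and 0 with the Welch test at either threshold, limma on the arrays compared, normexp, quantile normalization or the percentile over detected probes, and 0 to 2 when 1 rat was left out. Between whole and depleted D21 cervix it was 2, against 0 with the adjusted Welch test, 4 with limma on the arrays compared, 1 with genes well above background on all 12 arrays (where Lyz2 could not be tested) and 1 with the slide or the scan day as a block. Between whole and depleted NP cervix it was 3, and 3 to 5 when 1 rat was left out, 4 by adjusted p alone, and 2 with the Welch test at either threshold (without Slpi), with the slide or the scan day as a block (without Slpi), with quantile normalization (without S100a11) and with genes well above background on all 12 arrays (without Lyz2). For the interaction it was 0, and 0 to 1 when 1 rat was left out. Slpi in NP rats was also not called by the Welch test (2.97, adjusted p = 0.129). Normexp moved the median D21 minus NP difference of all genes in depleted cervix from 0.01 to 0.13, and the percentile over detected probes moved it to -0.15. The reason for each of these shifts was not tested. No paired analysis was possible because the groups compared share no rat numbers. Camp and Ltf were limited by signal over background.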
